A study of Mus musculus with 4 samples.

Results

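The genes described here encode chains of the basement membrane: the collagen IV chains Col4a1 and Col4a2, the laminin chains Lama1 and Lamb1, the nidogen Nid1 and the collagen XVIII chain Col18a1. Members were all probes annotated to 1 of these 6 genes only and read on all 4 arrays, and the older symbol Lamb1-1 counted as Lamb1. They were 7 of 9480 probes, with 2 probes for Col18a1 and 1 for each other gene, and 6 of the 6025 genes named on the array. The genes were chosen with their fosBd/d values known, so those values are a description and carry no test.

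RNA came from mouse embryonic stem (ES) cells grown without feeder cells. Serum was withheld from the cells for 72 h and then added back for 4 h, according to the series title. Each cDNA array with 2 colours carried RNA of a mutant line and RNA of wild-type ES cells. One mutant was homozygous for the fosBd allele and made exclusively ΔFosB, the truncated form of the AP-1 subunit FosB. The other was fosB-null. Each mutant had 2 arrays, replicate 1 with the mutant in Cy3 and replicate 2 with the mutant in Cy5. Whether a mutant line was 1 clone, and whether the arrays of a swap used separate RNA extracts, is not given in the sources used here. The spread between arrays may therefore be technical. Because each array compared bulk RNA, more cells of a producing type and more RNA per cell cannot be told apart.

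Basement membranes are thin sheets of extracellular matrix on which epithelia rest. Laminin trimers of an alpha, a beta and a gamma chain polymerise at the cell surface, and collagen IV trimers of Col4a1 and Col4a2 form a second network that nidogen links to the first. In the early mouse embryo, parietal endoderm cells secrete these chains in large amounts to build Reichert's membrane, and ES cells that differentiate to primitive endoderm begin to make them.

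Values are log2 ratios of the 2 channels, so that a value of 1 is a 2-fold difference and a value of 0 is none. Every array held exact zeros, and whether these were measured or set could not be told from the ratios. By the dye names, a positive fosBd/d ratio is called likely higher in the mutant. The same reading makes a positive fosB-null ratio lower in the mutant, and neither direction is settled. The reason lies in how the dye swap was handled. Exact zeros carried a minus sign on fosBd/d replicate 1 (all 960 of them) and on fosB-null replicate 2 (all 551), and on neither other array, which is the trace that multiplication by -1 leaves. Read with the dyes named in the labels, the fosBd/d values then run mutant over wild type and the fosB-null values wild type over mutant. Arrays with the mutant in the same dye correlated negatively across probes as deposited (r = -0.46 for both replicates 1, r = -0.37 for both replicates 2), and all 6 pairs of arrays correlated positively with the turning undone. In the labels, however, the colour word beside Cy3 is red and that beside Cy5 is green. Read by those words, both orders are exchanged, with fosBd/d as wild type over mutant and fosB-null as mutant over wild type. Under either reading the mutants run opposite ways, so their signs as deposited do not share a direction. Fosb itself had no probe of its own name among the 1-gene probes, so the ratios offered no check of the alleles. Ratios give no level, so the markers of ES cells could not be used to check the labelled cell type either.

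**Figure D1:**
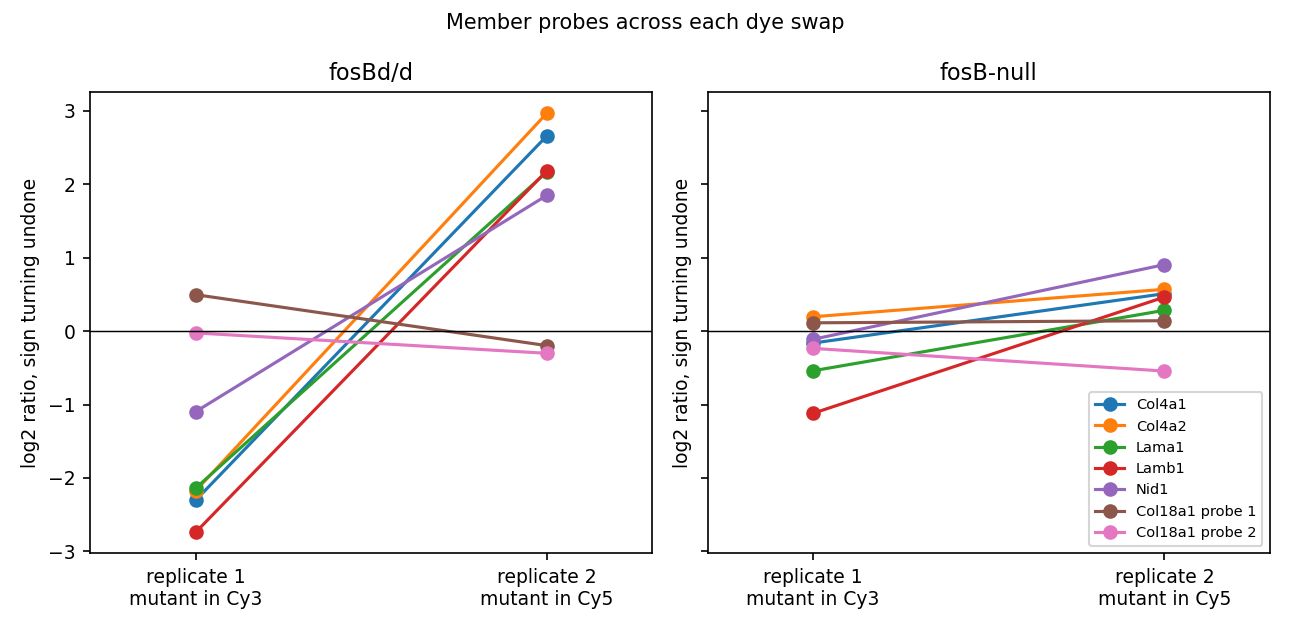
Log2 ratio of each member probe on the 4 arrays with the apparent sign turning undone (y axis), joined across the dye swap of each mutant (x axis; 1 line per probe, no error bars). In fosBd/d, 5 probes run from -2.74 to -1.10 with the mutant in Cy3 and from 1.85 to 2.97 with the mutant in Cy5, whereas the Col18a1 probes stay near 0.

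With the turning undone, the probes of Col4a1, Col4a2, Lama1, Lamb1 and Nid1 all changed sign between the arrays of the fosBd/d swap. Lama1 went from -2.14 to 2.17, the closest mirror image of the 5, and Lamb1 from -2.74 to 2.19. Neither Col18a1 probe showed such a reversal of 2-fold size, with 0.50 and -0.20 for the first and -0.02 and -0.30 for the second. Because the genes were chosen on these arrays, the agreement across the swap is a description of them. Of the 143 probes at least 4-fold positive on fosBd/d replicate 1 as deposited, 22 (15.4%) were at least 2-fold positive on replicate 2 and 99 (69.2%) at least 2-fold negative. Of the 74 such probes on replicate 2, 20 (27.0%) were at least 2-fold positive on replicate 1 and 34 (45.9%) at least 2-fold negative. Col4a1, Col4a2, Lama1 and Lamb1 were among both the 22 and the 20.

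Col4a1 and Col4a2 are neighbours that are transcribed from opposite strands, and their start sites are shown because both genes were strongly positive on both fosBd/d arrays. In RefSeq (GRCm38.p6) the start of Col4a2 on the plus strand and that of Col4a1 on the minus strand lie 21 bases apart on chr8:11312801-11312830, printed here 5′ to 3′ on the plus strand with the 22 bases from one start to the other in capitals.
Col4a2-Col4a1 starts: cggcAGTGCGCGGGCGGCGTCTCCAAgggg

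Promoter sequences were found for 5 of the 6 members in RefSeq (GRCm38.p6), Lama1 being the exception. The 250 bases before the annotated start are given for Lamb1 and Nid1, which had positive fosBd/d ratios like the collagen pair and lie on other chromosomes. Capitals mark GC boxes (GGGCGG) and CCAAT boxes (CCAAT), searched on both strands. Lamb1 lies on the plus strand at chr12:31265043-31265292 and Nid1 on the plus strand at chr13:13437352-13437601.
Lamb1: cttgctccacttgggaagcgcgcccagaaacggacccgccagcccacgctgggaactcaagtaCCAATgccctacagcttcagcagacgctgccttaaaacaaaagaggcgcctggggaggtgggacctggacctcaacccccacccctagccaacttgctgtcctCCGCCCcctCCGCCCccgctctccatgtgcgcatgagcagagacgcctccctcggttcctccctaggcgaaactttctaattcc
Nid1: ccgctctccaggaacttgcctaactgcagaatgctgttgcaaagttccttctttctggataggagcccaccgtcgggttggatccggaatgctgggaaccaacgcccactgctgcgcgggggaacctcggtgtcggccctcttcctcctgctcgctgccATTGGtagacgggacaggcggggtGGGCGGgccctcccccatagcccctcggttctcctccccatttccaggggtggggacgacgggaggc

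The Lamb1 window held 2 GC boxes and 1 CCAAT box, and the Nid1 window 1 of each. In all mouse promoter windows of this length, 32.7% held a GC box and 33.8% a CCAAT box. The Col4a2 window held 2 GC boxes and a CCAAT box, and the Col4a1 window a CCAAT box. The annotated transcripts of this pair overlap over the 22 bases from one start to the other. Each window thus lies on the transcribed side of the other gene's start. The 22 bases hold a GC box that is in neither window. Col18a1 had 2 annotated starts, and the first held 3 GC boxes and a CCAAT box although its probes were near 0 in fosBd/d. The AP-1 site TGANTCA, which FosB dimers bind, matched in 0 of the 6 member windows and in 6.75% of all windows. Matches to the SOX core AACAAT (9.42% of all windows) and the GATA core GATAA (22.6%) were also 0 in the member windows, as were those to the cAMP response element TGACGTCA (1.55%). The Col4a1 and Col4a2 windows were rich in G and C, at 74.4% and 73.6% against a median of 52.4% over all windows.

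In fosBd/d cells the collagen IV chains stood among the most positive probes of the array. Col4a1, the chain present in 2 copies in each trimer, had ratios of 2.30 and 2.66 on replicates 1 and 2, a mean of 2.48 ± 0.25 (SD, n = 2) or 5.59-fold. Col4a2, the remaining chain of the trimer, had 2.17 and 2.97, a mean of 2.57 ± 0.56 (SD, n = 2) or 5.95-fold. By mean ratio these probes ranked 8 and 5 from the top of 9480. The ratio of Col4a1 stood 0.13 above that of Col4a2 on replicate 1 and 0.31 below it on replicate 2, so the chains could not be ordered.

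The laminin chains lay in the same range. Lama1, the alpha chain of the embryonic laminin, had 2.14 and 2.17, a mean of 2.15 ± 0.02 (SD, n = 2) or 4.45-fold. Lamb1, its beta chain, had 2.74 and 2.19, a mean of 2.46 ± 0.39 (SD, n = 2) or 5.51-fold. Their ranks by mean were 16 for Lama1 and 9 for Lamb1. Lamc1, the gamma chain that completes this trimer and no member here, had 1.91 and 1.58, a mean of 1.75 ± 0.23 (SD, n = 2) or 3.35-fold. On both arrays Lamb1 stood above Lamc1, by 0.83 and 0.60, and so did Lama1, by 0.23 and 0.59. All chains of the trimer were thus at least 2-fold positive on both arrays, with Lamc1 the lowest of the 3.

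Nid1, which bridges laminin and collagen IV, was positive to a smaller extent and less evenly. Its ratios were 1.10 and 1.85, a mean of 1.47 ± 0.53 (SD, n = 2) or 2.78-fold, and its rank by mean was 73. Replicate 1 put it just over the 2-fold line, at 512th place on that array, and replicate 2 at 99th.

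Col18a1, whose C-terminal fragment is endostatin, did not follow the other members. Its first probe had -0.50 and -0.20, a mean of -0.35 ± 0.21 (SD, n = 2). The second had 0.02 and -0.30, a mean of -0.14 ± 0.23 (SD, n = 2). Both probes lay within 2-fold of wild type on each array, and the higher Col18a1 value on either array stood at least 1.07 below the lowest of the other members.

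**Figure D2:**
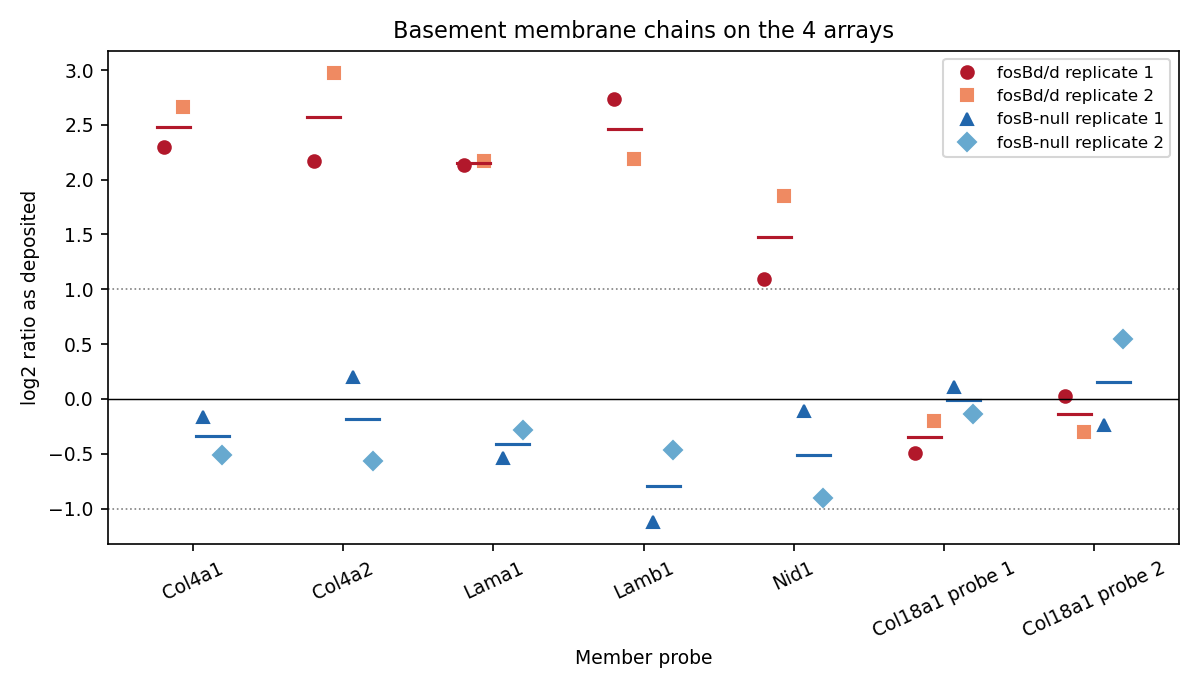
Log2 ratio as deposited (y axis) of the 7 member probes (x axis) on the 4 arrays, with horizontal bars at the mean of each mutant's 2 arrays and dotted lines at 2-fold. The fosBd/d points of Col4a1, Col4a2, Lama1, Lamb1 and Nid1 lie between 1.10 and 2.97, above every fosB-null point of the same probe, those of the first Col18a1 probe lie below its fosB-null points, and those of the second overlap with them.

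Counting probes that passed 2-fold in 1 direction on both arrays, 5 of the 7 member probes were positive in fosBd/d, against 1.24% of all probes. The negative side held 0 members and 0.338% of all probes. Since the members were chosen on this contrast, the counts only describe them. In limma, 0 of 9480 probes passed an adjusted p of 0.05 in fosBd/d (0% of probes) and 270 had an unadjusted p under 0.05. The dye term of this main fit followed the mutant's dye. If the zero marks are sign turning, it left a dye bias common to the arrays in the residual. With a dye term following the zero marks, chosen after seeing the data, 0 probes passed and 1503 had an unadjusted p under 0.05.

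**Figure D3:**
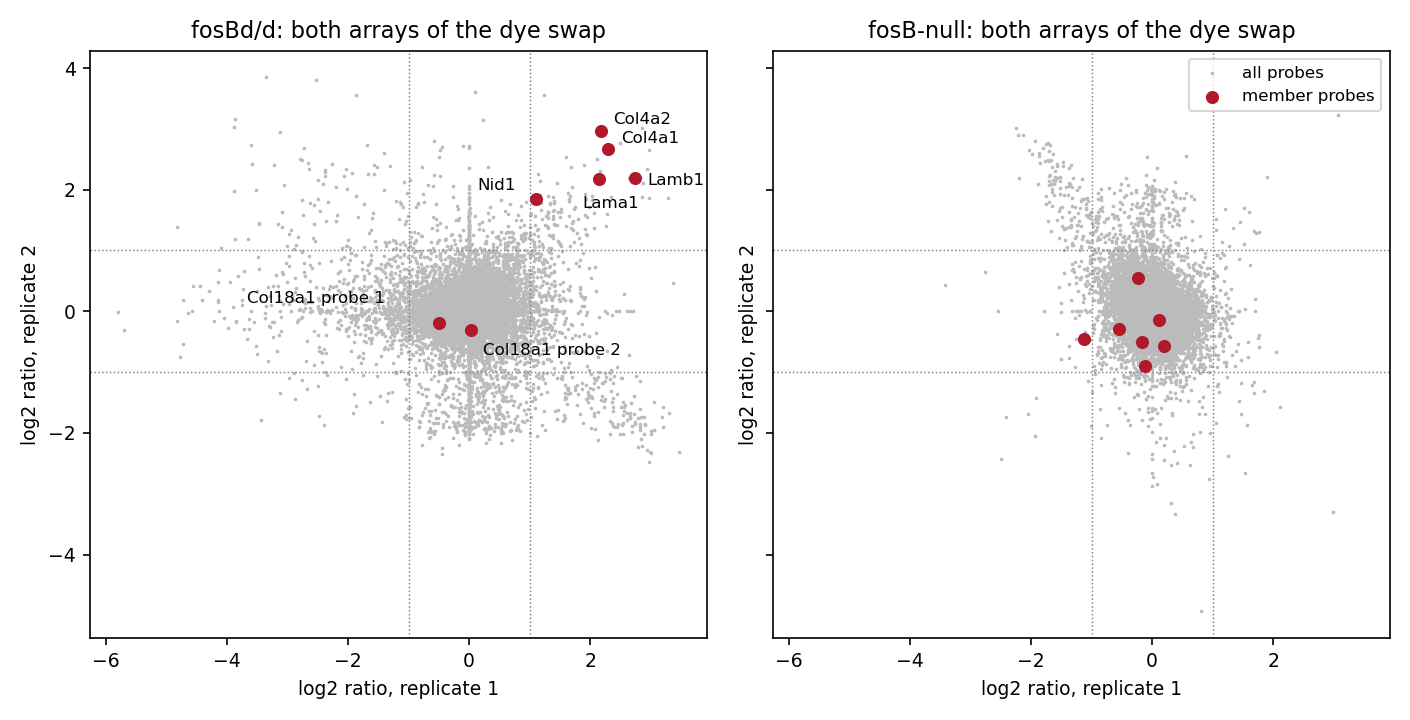
Log2 ratio on replicate 1 (x axis) against replicate 2 (y axis) for all 9480 probes (grey) and the 7 member probes (red), as deposited, for fosBd/d (left) and fosB-null (right), with dotted lines at 2-fold. In fosBd/d, 5 members lie in the upper right corner, apart from the arm of probes that were positive on one array and negative on the other. In fosB-null no member lies beyond 2-fold on both arrays.

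In fosB-null cells the same chains had small ratios, mostly on the negative side as deposited. Lamb1 had the lowest mean of the members, -0.79 ± 0.46 (SD, n = 2), from -1.12 and -0.46, although on replicate 2 Nid1, Col4a2 and Col4a1 were more negative. Nid1 followed with -0.11 and -0.91 and a mean of -0.51 ± 0.56 (SD, n = 2). The order of these genes could not be told, since the spread between their arrays was as wide as their difference. That spread includes any dye effect. For Nid1, Col4a1, Col4a2 and the first Col18a1 probe, replicate 2 stood above replicate 1 in fosBd/d and below it in fosB-null. Lamb1 and the second Col18a1 probe had the reverse, and Lama1 rose in both mutants. Whether a dye bias common to the arrays gave this mirror pattern was not tested.

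Lama1 had -0.54 and -0.28, a mean of -0.41 ± 0.18 (SD, n = 2). Col4a1 had -0.16 and -0.51, a mean of -0.34 ± 0.25 (SD, n = 2). Col4a2 lay on both sides of 0, with 0.20 and -0.57 and a mean of -0.19 ± 0.54 (SD, n = 2). The Col18a1 probes did so too, with 0.11 and -0.14 for the first (mean -0.01 ± 0.18, SD, n = 2) and -0.24 and 0.54 for the second (mean 0.15 ± 0.55, SD, n = 2). Thus 4 of the 7 probes were negative on both arrays, as were 19% of all probes, and 0 were positive on both, as were 18.6%.

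The 2-fold rule took 0 of the 7 members in fosB-null in either direction, where it took 0.158% of all probes as positive and 0.0844% as negative. For fosB-null, limma passed 0 of the 9480 probes (0% of probes), and 47 had an unadjusted p under 0.05. Each member had a limma adjusted p of 1. The smallest unadjusted p among the members was that of Lamb1, 0.120 in the main limma fit across all probes, with a standard error of 0.37 on its mean. In the limma fit with the dye term following the zero marks it was 0.00838, with an adjusted p of 0.651. Read by the dye names, in which fosB-null ratios run wild type over mutant, these means change sign. Lamb1 would then stand at 0.79, Nid1 at 0.51, Lama1 at 0.41, Col4a1 at 0.34 and Col4a2 at 0.19 relative to wild type.

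As deposited, Col4a1, Lama1, Lamb1 and Nid1 were positive on both fosBd/d and negative on both fosB-null arrays, as were 6.5% of all probes, while 6.27% showed the reverse. By the dye names or by the colour words, these opposite signs stand for the same direction relative to wild type in both mutants. Between the mutants, both fosBd/d arrays lay above both fosB-null arrays for Col4a1, Col4a2, Lama1, Lamb1 and Nid1, whereas the first Col18a1 probe had both fosBd/d arrays below both fosB-null arrays and the second overlapped. The placement of all 7 probes held with the fosB-null ratios as deposited, where 16.9% of all probes had fosBd/d above fosB-null throughout, and with their sign turned (14.4%). The SE of a difference was taken from the spread across each swap and so includes any dye effect. As deposited, the differences of the means ± SE were 2.82 ± 0.25 for Col4a1 and 2.76 ± 0.55 for Col4a2. With the fosB-null sign turned they were 2.15 and 2.39, so both stayed positive when that sign alone was changed. Whether this is an excess in fosBd/d cells is not settled, since the direction of the fosBd/d ratios is not settled either. Lamb1 moved most between the readings, from 3.25 ± 0.43 to 1.67, and Lama1 moved from 2.57 ± 0.13 to 1.74. The Nid1 difference was 1.98 ± 0.55 as deposited and 0.96 turned. Read by the colour words, the differences given for the turned sign would be reversed. With 2 arrays against 2, an exact two-sided permutation test could not go below p = 0.333. In limma 0 of 9480 probes passed for this difference (0% of probes), as deposited or turned, with 153 and 141 at an unadjusted p under 0.05.

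The remaining chains of the same families had smaller ratios than Col4a1, Col4a2, Lama1 and Lamb1. Of 9 further laminin chains, 6 were measured, with a median fosBd/d ratio of 0.39 against -0.02 over all genes. Lamc1 was the 1 gene at least 2-fold positive on both arrays, where 1.53% of all genes were. The beta chain Lamb2 of later basement membranes had 1.02 and 0.46. The alpha chains Lama4 and Lama5 had means of 0.42 and 0.35, and Lama2 and Lamb3 stood at 0.02 and 0.06. Lama2 was exactly 0 on replicate 1. The 1 measured of 4 further collagen IV chains, Col4a5, had 0.47 and 0.69, well below Col4a1 and Col4a2.

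Of 22 other basement membrane components, 7 were measured, with a median of 0.28 in fosBd/d and of 0.36 and 0.59 on its arrays. Pxdn, the peroxidase that cross-links collagen IV, was the 1 gene past 2-fold on both arrays (1.53% of all genes), with 1.26 and 1.42. The second nidogen, Nid2, had 0.37 and 0.66, and Agrn, a heparan sulphate proteoglycan, had 0.49 and 0.59. Both were positive on both arrays but under 2-fold, and lower than Nid1 on each. Hmcn1 disagreed with itself across the swap, at -2.63 and 1.79.

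Enzymes and chaperones that prepare collagen for secretion were mostly on the same side as the collagen chains. Of 30 listed, 16 were measured, and 13 were positive on both fosBd/d arrays, as were 25% of all genes. The 2 negative on both stand beside 24.2% of all genes. This list, like the others here, was chosen with earlier results of these data known, so its counts are a description. The list's median was 0.63. P4ha2 and P4ha1, the catalytic subunits of prolyl 4-hydroxylase, had means of 1.93 ± 0.14 and 1.75 ± 0.14 (SD, n = 2), and the lysyl hydroxylase Plod1 had 1.47 ± 0.52 (SD, n = 2). These 3 genes were the list's members past 2-fold on both arrays, where 1.53% of all genes were. P4hb, the other subunit of prolyl 4-hydroxylase, had 1.53 and 0.99 and so fell just short. P3h3, a prolyl 3-hydroxylase, was negative on both, at -0.68 and -0.23.

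Receptors for laminin and collagen had smaller ratios than Col4a1, Col4a2, Lama1 and Lamb1. Of 19 listed, 11 were measured and the median was 0.16, with 0.35 and 0.07 on the arrays. On both arrays 4 were positive (25% of all genes), 0 were negative (24.2%), and 0 were past 2-fold, where 1.53% of all genes were. The laminin receptor subunits Itga6 and Itgb1 had means of -0.03 and 0.25, and Dag1, the dystroglycan core, 0.16. The collagen receptor Ddr1 had 0.59 and 0.45, positive on both but under 2-fold.

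Genes of matrix turnover had a median of -0.05 over 13 measured of 20, with 0.00 and -0.08 on the arrays. The replicate 1 median was an exact 0, the value of Mmp7, Mmp9 and Ctss there. Ctsl, a lysosomal and secreted cysteine protease, was the 1 past 2-fold on both arrays (1.53% of all genes), with 1.40 and 1.81. Of the gelatinases, which cleave collagen IV, Mmp2 had -0.02 and -0.08, and Mmp9 had an exact 0 on replicate 1 and -1.33 on replicate 2. Interstitial matrix genes had a median of 0.15 over 14 measured of 23 (0.08 and 0.02 on the arrays). Eln (elastin, 1.09 and 1.57) was the 1 past 2-fold on both arrays (1.53% of all genes). The fibrillar collagen chains Col1a1 and Col1a2 had means of 0.07 and 0.25, and of the collagen chains among the lists and the members only Col4a1 and Col4a2 were past 2-fold on both arrays.

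**Figure D4:**
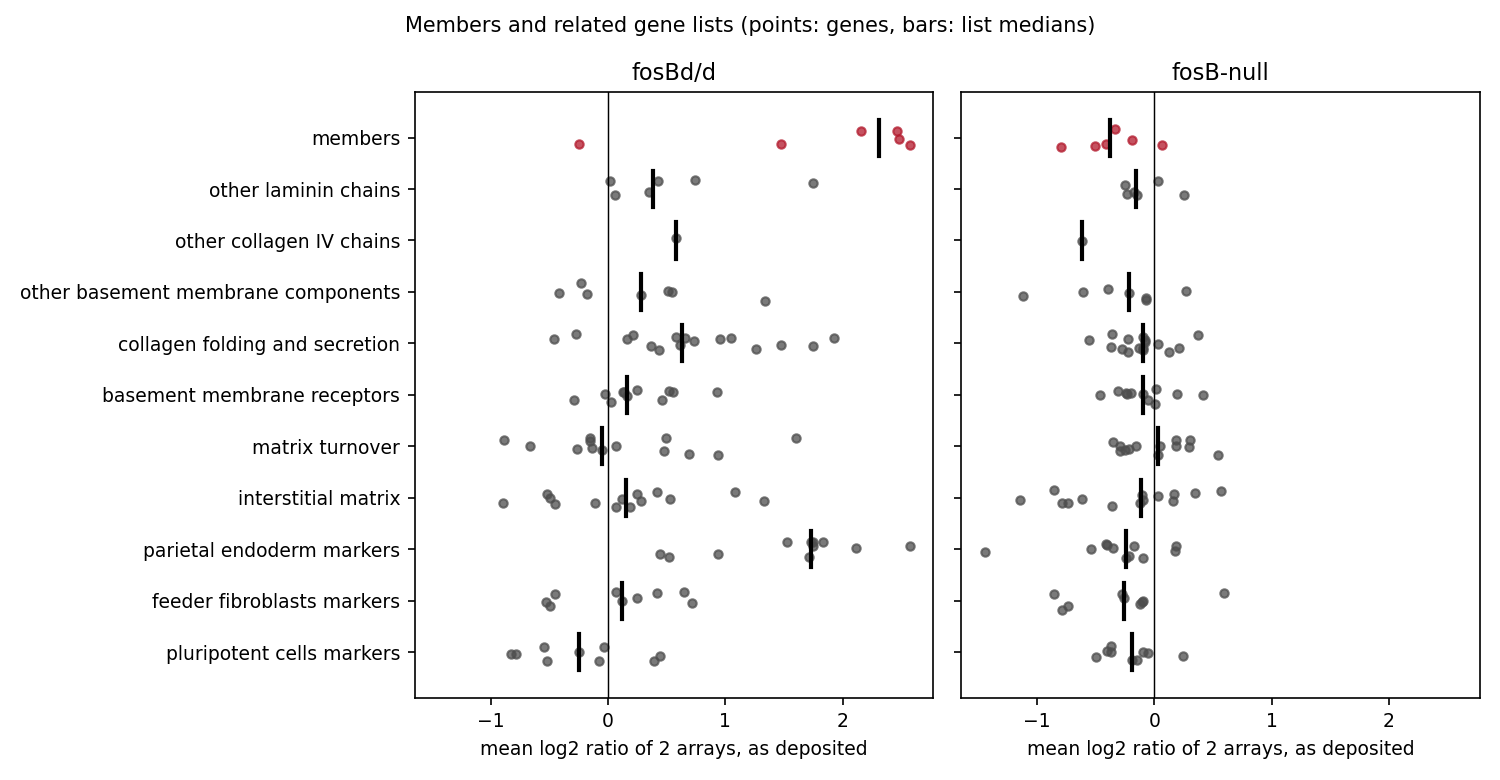
Mean log2 ratio of 2 arrays as deposited (x axis) for each gene (points) of the members and of 10 related lists (y axis), with bars at list medians, for fosBd/d (left) and fosB-null (right); vertical jitter has no meaning and Lamc1, Plat and some collagens stand in 2 lists. In fosBd/d the members and the parietal endoderm markers have the medians farthest to the right, with a marker median of 1.73, although the member Col18a1 lies below 0. The receptors and turnover genes lie around 0. Visceral endoderm markers, with a fosBd/d median of 0.91, are not drawn.

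Most genes listed as markers of parietal endoderm, which secretes these chains, were on the members' side in fosBd/d. Of 15 listed, 11 were measured, with a median of 1.73, and 8 were past 2-fold on both arrays (1.53% of all genes). The list includes Lamc1, a chain of the same laminin trimer. It also includes Gata6, Sox17, Foxa2 and Pdgfra, which are not particular to parietal endoderm, and the median is the value of Foxa2. The list medians therefore do not separate parietal from visceral endoderm. All marker lists were chosen with earlier results of these data known, so their counts and medians only describe them. Per gene the ratios ran from 1.65 to 3.28 on replicate 1 and from -1.95 to 1.89 on replicate 2. Thbd had 3.28 and 1.86, Pth1r 2.34 and 1.89, and the transcription factor Gata6 1.95 and 1.55. Sox17 (2.83 and -1.95), Krt19 (1.95 and -0.90) and Plat (1.94 and -0.06) were positive on replicate 1 only. Visceral endoderm markers had a median of 0.91 over 10 genes, of which 4 were past 2-fold on both arrays, against 1.53% of all genes. Of 18 pluripotent cell markers 9 were measured, and Pou5f1, Nanog and Sox2 were not among them. The median of the 9 was -0.24, but -0.51 on replicate 1 and 0.12 on replicate 2. On both arrays 4 were negative (24.2% of all genes) and 2 positive (25%). Feeder fibroblast markers had a median of 0.12 over 9 genes, with -0.06 and 0.02 on the arrays, and trophoblast markers one of -0.21 over 5 genes, with 0.06 and 0.07. The sign of these 3 medians thus depended on the array or on averaging the arrays. The part of any cell type in the members' ratios was not tested. In fosB-null the parietal endoderm markers had a median of -0.24 and the visceral endoderm markers one of 0.53, so the latter did not side with the members there.

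Of the AP-1 subunits, 3 of 7 were measured. Jund had 0.55 and 0.45 in fosBd/d, Fos 0.11 and 0.82, and Junb 0.28 and -0.12, none past 2-fold on both arrays.

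The probes most like the chains were sought by Euclidean distance over the 4 arrays to the mean profile of Col4a1, Col4a2, Lama1 and Lamb1, which was 2.34, 2.50, -0.41 and -0.46. Among 6559 other 1-gene probes the nearest was Clu (clusterin, a secreted chaperone), with 2.17, 2.30, -0.65 and -0.60 at a distance of 0.38. Slco2a1, a prostaglandin transporter, came second at 0.52, and 1 of the 3 Nfia probes followed at 0.55. P4ha2 came next at 0.76, the only gene of the collagen folding list among the nearest 10. The others were Gm13597, Cryab, F3, Slc34a2, Pga5 and Ccnd2, up to a distance of 0.92. For comparison, Nid1 lay at 1.5, with 39 other probes nearer, and the Col18a1 probes at 3.96 and 3.77, beyond the median distance of 3.57. This likeness rests on 2 mutants that share wild type as control, and with 4 arrays it gives an order and no more.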

How the data were processed

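The deposited table holds a value for each probe on each array, made with Agilent Feature Extraction per the submitters' processing notes and taken here as the log10 ratio that this software defines. Version, background correction and dye normalization: not given in the sources used here. The base rests on that definition, and with it the scale of every fold. Values were multiplied by 3.32 to give log2. Channel intensities were not analysed here, and the number of arrays limits the precision. Probes were named from a 2007 platform annotation, updated by gene identifier through RefSeq: 6566 had 1 gene, 392 several and 2522 none, and 6496 identifiers matched. Probes of a gene were averaged for lists.

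The 4 arrays were fitted together in limma 3.58.1 under R 4.3.3, with terms for each mutant and for dye. The fit had 1 residual degree of freedom, and tests were two-sided and Benjamini-Hochberg adjusted. The code was run on simulated data with less noise than the prior variance of 0.223 estimated here. Their dye effect followed the mutant's dye, so they could not check the dye term for these arrays. The dye term followed the mutant's dye, which leaves a common dye bias in the residual if the zero marks are sign turning. Because the 2 mutants' values appear to run opposite ways, a term following the zero marks was added after seeing the data. Members and lists were chosen with earlier results of these data known. Named genes were the members, listed genes and the 10 nearest probes. Alternatives were no dye term, each array left out, array scaling, centring, the fosB-null sign and no probes with a 0.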

Additional observations from a re-analysis of the deposited data

Results flagged for a closer look

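Among the 46 member probes and genes of the chain, component, folding and nearest sets, 21 were above 0 on both fosBd/d arrays and below 0 on both fosB-null arrays as deposited, and 0 ran the other way. Over all probes, 6.5% were so placed and 6.27% ran the other way. The nearest probes were picked for this profile, the members with their fosBd/d values known and the lists with earlier results known. The count therefore only describes them and cannot be weighed against these shares. The differences were not tested one by one. Each of the 21 would lose its opposition with the fosB-null sign turned relative to fosBd/d, as the dye names and the colour words both have it.

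The members so placed were Lamb1, with a difference of fosBd/d minus fosB-null of 3.25, Col4a1 at 2.82, Lama1 at 2.57 and Nid1 at 1.98. Among further basement membrane genes the difference was 1.55 for Pxdn, 1.19 for Col4a5, 0.89 for Fbln2 and 0.60 for Lama5. Collagen folding and secretion genes added P4ha2 at 2.48, P4ha1 at 1.83, Plod1 at 1.83, Plod3 at 1.27, Hsp90b1 at 0.66 and Sec23a at 0.35. Of the nearest probes, F3 stood at 3.62, 1 of the 3 Nfia probes at 2.94, Clu at 2.86 and Slco2a1 at 2.65. Cryab stood at 2.29, Ccnd2 at 2.25 and Gm13597 at 2.10.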

How the results depend on the processing

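The fosBd/d ratios of Col4a1, Col4a2, Lama1, Lamb1 and Nid1 stayed positive under array scaling, both centrings and without either array. Scaling each array to a common spread lowered Col4a1 to 2.16 and Lama1 to 1.86, by more than the spread of their arrays. The counts of probes past 2-fold rose when both arrays were not required: by the mean of both arrays they were 520 in fosBd/d, against 150 on both arrays, and 89 in fosB-null, against 23. Without 1 of the arrays they were 1117 to 1382 in fosBd/d and 328 to 619 in fosB-null. Calls by limma were 0 in every comparison and setting run. At an unadjusted p under 0.05, the dye term by zero marks, chosen after seeing the data, raised the counts from 270 to 1503 in fosBd/d, from 47 to 578 in fosB-null and from 153 to 1320 between the mutants. In that fit the fosB-null p of Lamb1 was 0.00838 and that of Nid1 0.0212, both with a limma adjusted p of 0.651. Without a dye term the counts were 709, 179 and 539. The labels give no replicate numbers; here they follow accession order and coincide with the dye orientation, so the dye term is also a replicate block, and the fit without it is the fit without a block. Of the list medians under the alternatives, 21 moved by more than the spread of the arrays and 83 did not. Signal over background was not analysed here, so dim probes could not be told from bright ones.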
